A study of Mus musculus with 24 samples.

Results

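The Robo receptors (Robo1, Robo2, Robo3 and Robo4) and their Slit ligands (Slit1, Slit2 and Slit3) were followed through all 24 libraries of the study. These 7 genes were taken by symbol from the 56748 genes of the deposited table, and each of the 7 had a row. The set was selected on the measured retinal counts of Robo3, which were higher in the retinas in which PRDM13 had been induced. The Robo3 comparisons between retinas are therefore given as a description, without a test.

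The libraries came from 12 mice on the C57BL/6J background. PRDM13-OE mice were heterozygous and carried 1 copy of a human 3xHA-PRDM13 cassette at Rosa26, with the TRE3G promoter driving PRDM13 and the broadly active EF-1α promoter driving the transactivator that doxycycline (dox) switches on. The cassette could thus be induced in any cell type, and not in the retina alone. Littermates without the cassette served as wildtype. In each genotype, 3 mice drank water with 2 mg/mL dox and 10% sucrose for 72 hours from P28 and 3 were untreated, so dox cannot be told apart from the sucrose given with it. Neural retina and the remaining eye cup (RPE, choroid and sclera) were sequenced from every mouse, which gave 8 groups of 3.

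Slits are secreted proteins that bind Robo receptors on growing axons and mostly repel them. Robo1 and Robo2 are the classical Slit receptors of neurons, and in the visual system Robo2 with Slit1 and Slit2 guides the axons of ganglion cells within the retina and at the optic chiasm. Robo3 is the divergent member: it lets commissural axons cross the midline of the hindbrain and spinal cord, binds Slits poorly in mammals and responds to Nell2. Robo4 belongs to the endothelium of blood vessels. PRDM13 is a transcriptional regulator of amacrine cell development that acts with bHLH factors, which bind E-boxes (CANNTG).

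Robo3 (ENSMUSG00000032128) lies on chr9:37326965-37344542 of GRCm39, minus strand, and Robo4 on chr9:37313193-37326411, plus strand. The genes meet tail to tail with 553 bases between them. Their upstream sequences are shown because these receptors are neighbors on the chromosome and Robo3 is the gene that chose the set. Each runs 250 bases upstream of the gene start in the GENCODE vM39 annotation, 5′ to 3′ on the strand of the gene, with E-boxes in capitals. The Robo3 stretch is chr9:37344738-37344987 and the Robo4 stretch chr9:37312943-37313192.
Robo3: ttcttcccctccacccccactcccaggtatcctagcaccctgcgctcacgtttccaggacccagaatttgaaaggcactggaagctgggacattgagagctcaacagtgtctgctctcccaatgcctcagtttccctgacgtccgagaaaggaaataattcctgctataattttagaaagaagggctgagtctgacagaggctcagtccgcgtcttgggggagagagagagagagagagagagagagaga
Robo4: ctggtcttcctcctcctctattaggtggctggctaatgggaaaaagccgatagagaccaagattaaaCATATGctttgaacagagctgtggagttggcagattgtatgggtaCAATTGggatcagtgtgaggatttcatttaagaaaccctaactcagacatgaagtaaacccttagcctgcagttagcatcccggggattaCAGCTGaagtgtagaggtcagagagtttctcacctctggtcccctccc
The Robo3 stretch held no CANNTG. Robo4 held 3, among them 1 CAGCTG. Among the 21757 gene starts for which the same window was read, 66.5% held at least 1 CANNTG, 11.8% held 3 or more and 12.0% held CAGCTG, counted on both strands, a palindrome once. Robo1 and Slit3 each held 2 CANNTG, and Robo2 and Slit2 held none. No window was read for Slit1. These matches describe the letters of the windows only.

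Library depth was 15825059 to 24908314 counts. Levels are given as CPM (counts scaled to library size with TMM), and comparisons between genes as deposited FPKM, which corrects for gene length. The sum of 12 rod genes was 57580 to 82780 CPM in the retinas and 3446 to 51300 in the eye cups, and Rpe65, of the RPE, reached 4.53 to 27.7 CPM in the retinas and 389 to 3157 in the eye cups. Rod transcripts were thus present in every eye cup, in very unequal amounts. The 3 PRDM13-OE dox mice also stood apart in red blood cell genes: the sum of 5 such genes was 0.709 to 1.18 CPM in their retinas against 21.6 to 77.8 in the other 9, and 12.4 to 14.3 in their eye cups against 238 to 3459. All 3 of these mice carried Xist transcripts (128 to 189 CPM in retina), whereas 4 of the other 9 retinas had Xist at 0 CPM. The mouse Prdm13 row read 52.8 to 60.3 CPM in PRDM13-OE dox retinas and 44.9 to 54.6 in the other retinas; the human cassette was not measured here.

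Robo3 was a scarce transcript in the retina and was highest in all 3 PRDM13-OE dox retinas. They held 37, 48 and 46 Robo3 counts, or 2.19, 2.64 and 2.47 CPM. Wildtype dox retinas held 16, 19 and 9 counts, or 0.921, 1.02 and 0.531 CPM. Without dox, PRDM13-OE retinas were at 0.429, 1.23 and 0.86 CPM and wildtype retinas at 0.39, 1.37 and 0.525. The lowest PRDM13-OE dox retina thus lay above the highest of the other 9, and the other 3 groups overlapped one another. In PRDM13-OE dox against wildtype dox, 16.4% of all genes tested were higher without overlap. The group means were 2.43 ± 0.23 CPM (SD, n = 3) with induced PRDM13 and 0.824 ± 0.258 in wildtype with dox, a 2.91-fold difference (log2-fold change 1.54). Against untreated PRDM13-OE retinas the log2-fold change was 1.52. These comparisons share the PRDM13-OE dox retinas and chose the gene, so no test is attached to them.

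**Figure D1:**
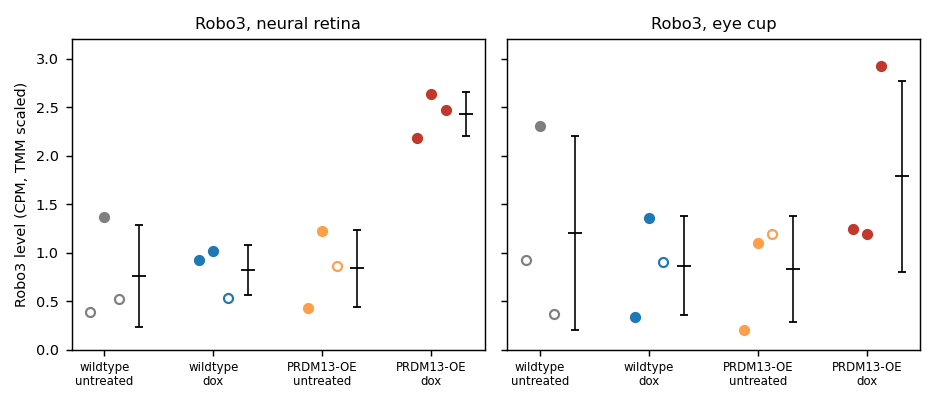
Robo3 level in CPM (vertical axis, linear) in each library of the 4 groups, neural retina on the left and eye cup on the right. Points are mice, filled where Xist was above 1 CPM in that library, and bars show mean ± SD (n = 3); the PRDM13-OE dox retinas sit at 2.19 to 2.64 CPM, above the other 9 retinas.

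The difference between the dox effects of the genotypes was 1.37 on the log2 scale for Robo3 and rested in part on 1 library, since it was 0.67 without wildtype untreated retina 2, which had the highest Robo3 level among the retinas without induced PRDM13. Dox alone, in wildtype retinas, gave a Robo3 difference of 0.15 on the log2 scale, and the cassette alone, without dox, gave 0.17. These retinas were the low side when the gene was chosen, so these values too are given without a test. Among wildtype retinas Robo3 was at 0.921, 1.02 and 1.37 CPM where Xist was present and at 0.531, 0.39 and 0.525 where it was at 0. In untreated PRDM13-OE retinas it was at 0.429 and 1.23 with Xist and at 0.86 without. With Xist as a covariate over the 12 retinas the PRDM13-OE dox against wildtype dox difference of Robo3 was 1.26. The part of red blood cell transcripts in it was not tested.

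Over the 12 retinas the genes whose levels followed Robo3 most closely were Uck1 (Pearson r = 0.948), Wrap53 (0.938), Acoxl (0.936), Ykt6 (0.933) and Abtb1 (0.93), out of 14636 genes compared, of which 18 exceeded 0.9. The coefficients are descriptions, and for each of the 5 the PRDM13-OE dox retinas were above all others. Acoxl, an acyl-CoA oxidase-like gene, was at 6.1 to 7.09 CPM with induced PRDM13 and at 2.12 to 4.21 in the other 9 retinas. Wrap53, a telomerase holoenzyme gene, was at 31.0 to 33.6 CPM against 19.0 to 24.1. Robo3 ran against the summed rod genes (r = −0.85) and against the summed amacrine genes (r = −0.856) over the same 12 libraries, which hold the same group difference. Of the other Robo and Slit genes, Slit1 (r = −0.71) and Robo2 (r = −0.702) ran against Robo3, and the remaining 4 lay between −0.107 and −0.0263.

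Of 9 annotated genes within 100 kb of Robo3, 6 were tested in PRDM13-OE dox against wildtype dox retinas. None of the 6 was called, where 2.41% of all genes were, and 1 of 6 passed an adjusted p of 0.05, where 12.5% did, so these counts are near those of all genes. Esam, an endothelial adhesion gene 94.8 kb away, was that one, at a log2-fold change of −0.34 (SE 0.09, adjusted p = 0.0336). Hepacam, a glial adhesion gene 29.1 kb away, was at 0.36 (adjusted p = 0.143) and Msantd2, 55.8 kb away, at 0.36 (adjusted p = 0.125). Ccdc15 was at −0.03 (adjusted p = 0.962), and Gm47652, with under 1 CPM in each group, at 1.30 (adjusted p = 0.516). Robo4, the nearest, had 4.13, 4.40 and 4.35 CPM with induced PRDM13 and 5.47, 3.60 and 3.48 in wildtype with dox. Its log2-fold change was 0.03 (SE 0.20, 95% interval −0.41 to 0.48, adjusted p = 0.938).

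Robo4 was also compared with the vessels that express it. In the PRDM13-OE dox retinas the sum of 13 endothelial genes was 255 to 283 CPM against 386 to 489 in the other 9 retinas. Of the 13 genes, 7 were lower in PRDM13-OE dox than in wildtype dox retinas at an adjusted p under 0.05, where 7.51% of all genes were lower, and none was higher, with a median log2-fold change of −0.36 beside 0.01 for all genes. Robo4 spanned 3.48 to 5.47 CPM over the 12 retinas and followed the endothelial sum weakly (r = 0.13, n = 12). In bulk tissue, fewer cells of a type and less RNA per cell cannot be told apart.

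Neither of the classical neuronal receptors passed the test in the retina. Robo1 had 23.4, 23.4 and 23.8 CPM with induced PRDM13 and 25.3, 27.5 and 24.0 in wildtype with dox. The groups did not overlap, as in 15.4% of the 20560 genes tested, lower without overlap, and the log2-fold change was −0.13 (SE 0.07, adjusted p = 0.292). Robo2 had 101, 97.6 and 97.7 CPM against 100, 102 and 119. These groups overlapped, with a log2-fold change of −0.12 (SE 0.07, adjusted p = 0.322). The 95% intervals were −0.29 to 0.03 for Robo1 and −0.28 to 0.04 for Robo2.

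**Figure D2:**
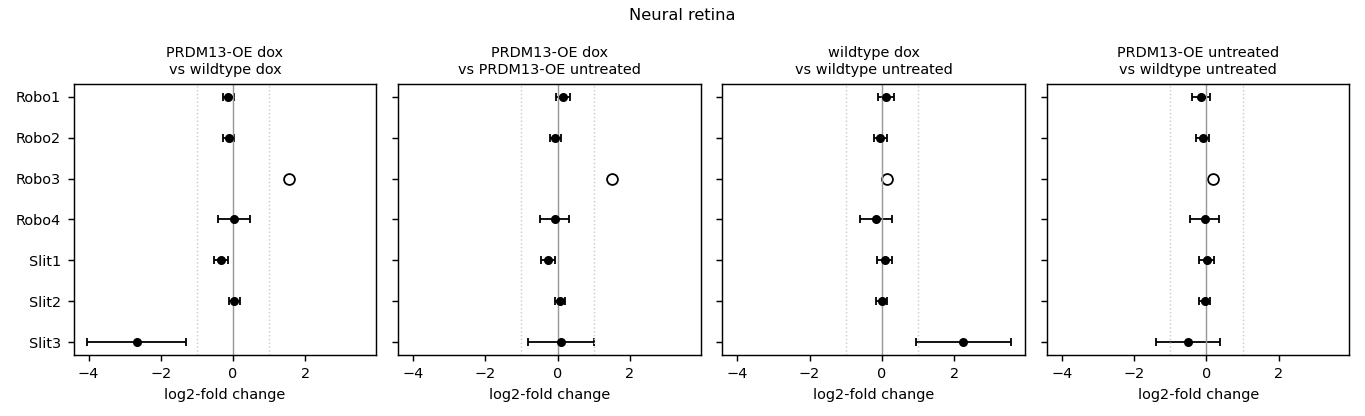
Log2-fold change (horizontal axis) of each Robo and Slit gene in 4 neural retina comparisons, with bars for 95% intervals and dotted lines at a log2-fold change of 1 in either direction. Open circles mark Robo3, which was chosen on retinal values and has no test here; Robo1, Robo2, Robo4 and Slit2 lie near 0 in every comparison.

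Among the ligands, Slit1 was slightly lower and Slit2 did not pass the test. Slit2 was the highest of the 3 in CPM, which does not correct for gene length. It had 152, 128 and 143 CPM with induced PRDM13 and 130, 144 and 139 in wildtype dox retinas. The log2-fold change of Slit2 was 0.03 (SE 0.07, adjusted p = 0.823). Slit1 had 29.5, 25.6 and 24.4 CPM against 36.3, 33.2 and 29.7. The groups were separated by a small gap, between 29.5 and 29.7 CPM. The log2-fold change of Slit1 was −0.33 (SE 0.09, adjusted p = 0.0359), which passed the p threshold but not the cutoff of 1 on the fold, and 7.51% of all genes were lower at that p threshold. The p threshold was lost with the lens covariate described below (−0.13, adjusted p = 0.776), the Xist covariate (−0.33, adjusted p = 0.0646) and library size scaling (−0.24, adjusted p = 0.104). It was also lost without PRDM13-OE dox retina 2 or 3 or wildtype dox retina 1 or 2 (−0.33 to −0.26, adjusted p = 0.0809 to 0.131). Against untreated PRDM13-OE retinas, at 32.3, 33.0 and 29.2 CPM, Slit1 was at −0.26 (SE 0.09, adjusted p = 0.167).

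Slit3 was the only one of the 6 other Robo and Slit genes called in PRDM13-OE dox against wildtype dox retinas (adjusted p under 0.05 and log2-fold change past 1, as 2.41% of all genes tested). It had 8, 13 and 14 counts with induced PRDM13, or 0.472, 0.714 and 0.752 CPM. Wildtype dox retinas had 57, 152 and 16 counts, or 3.28, 8.15 and 0.945 CPM. The third wildtype dox retina was thus near the others, and 2 wildtype libraries made the difference. Untreated retinas were low as well, at 0.613, 0.758 and 0.43 CPM in PRDM13-OE and 0.633, 0.874 and 1.10 in wildtype. The log2-fold change against wildtype dox was −2.67 (SE 0.62, adjusted p = 0.0162), and against untreated PRDM13-OE retinas it was 0.10 (SE 0.42, adjusted p = 0.949).

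Lens transcripts were high in the retinas with most Slit3. The sum of 18 lens genes was 11900, 4917 and 123.4 CPM in wildtype dox retinas 1, 2 and 3, the same pair of libraries being high. It was 4.95 to 31.1 in the PRDM13-OE dox retinas and 7.35 to 945 in the untreated ones, and the lens crystallin Cryaa spanned 0.817 to 4778 CPM over the 12 retinas. All 17 lens genes tested were called lower, with a median log2-fold change of −7.50 beside 0.01 for all genes. Surface epithelium genes summed to 13.1 CPM in wildtype dox retina 2, which had the most Slit3, and to 1.66 at most in the other 11. Over the 12 retinas Slit3 went with the lens sum at r = 0.721 (Spearman coefficient 0.51), which fell to 0.16 without the 2 libraries farthest from the median. Wildtype untreated retina 1 had a lens sum of 945 CPM with Slit3 at 0.633 CPM. With lens as a covariate over the 12 retinas, Slit3 was at −1.10 (adjusted p = 0.667). The call was also lost without wildtype dox retina 2 (−1.70, adjusted p = 0.0527), without any 1 of the PRDM13-OE dox retinas (adjusted p = 0.0618 to 0.0718) and with robust fitting (−2.67, adjusted p = 0.178). In wildtype retinas, dox against untreated gave 2.25 (SE 0.60, adjusted p = 0.277), which became 2.71 (adjusted p = 0.00575) without wildtype dox retina 3.

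**Figure D3:**
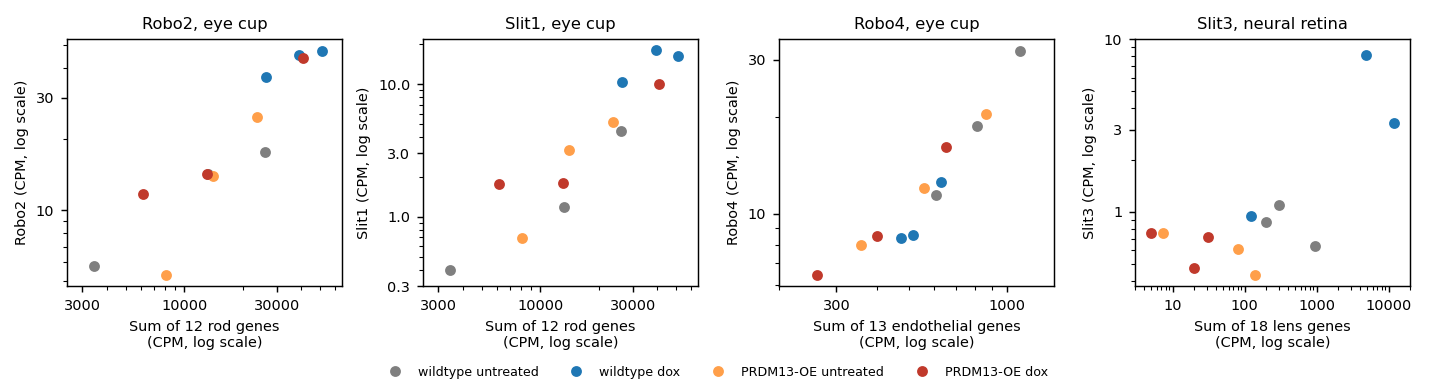
Level of 4 Robo and Slit genes (vertical axes, CPM on a log scale) against summed marker genes of the same library (horizontal axes, CPM on a log scale), 12 libraries per panel, colored by group. Robo2 and Slit1 rise with rod genes in the eye cups, Robo4 rises with endothelial genes in the eye cups, and the 2 retinas with most Slit3 have most lens transcripts.

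In the other retina comparisons none of the tested Robo and Slit genes was called, Robo3 being left out. Dox in PRDM13-OE mice called 1.04% of 20603 genes, dox in wildtype 0.00485% of 20631 and the difference between the dox effects 0.87% of 22538. The cassette without dox called 0 of 20668 genes (778 at an unadjusted p under 0.05), and the 7 log2-fold changes there ran from −0.52 for Slit3 to 0.17 for Robo3.

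Next, Robo3 was set beside the rest of the axon guidance family: 107 genes in all, comprising Slit-Robo partners, netrins and their receptors, RGM proteins, semaphorins, plexins and neuropilins, ephrins and Eph receptors. None of them was called higher in PRDM13-OE dox than in wildtype dox retinas, and 1 was called lower, beside 0.905% and 1.5% of all genes. Without the fold cutoff 4 were higher and 23 lower, or 25.2% against 12.5% of all genes, and the median log2-fold change of the 107 was −0.15 against 0.01 for all genes.

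The gene called lower was Unc5b, a netrin receptor that also binds Robo4 in endothelium. It had 11.4, 9.72 and 10.4 CPM with induced PRDM13 and 25.1, 24.3 and 24.3 in wildtype with dox. Untreated retinas of both genotypes were at 21.9 to 26.6, so the 3 PRDM13-OE dox retinas stood below all others. The log2-fold change was −1.23 (SE 0.09, adjusted p = 3.6e-06) against wildtype dox, −1.20 (SE 0.11, adjusted p = 2.27e-05) against untreated PRDM13-OE and −1.24 (SE 0.13, adjusted p = 1.51e-05) for the difference between the dox effects. The endothelial sum was lower in the same 3 retinas, as given above, and its part in the Unc5b difference was not tested.

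The 4 guidance genes that were higher below the fold cutoff were Sema3f, Neo1, Ntn4 and Myo9b, and these and the following were chosen after their values were seen. Sema3f, a repulsive semaphorin, was at 257 to 271 CPM with induced PRDM13 and 172 to 187 in wildtype with dox (log2-fold change 0.55, SE 0.05, adjusted p = 3.26e-05). Neo1, the neogenin receptor of RGM proteins and netrins, was at 171 to 192 against 135 to 146 CPM (0.36, SE 0.06, adjusted p = 0.00225). Both exceeded every untreated retina too.

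Sdc3, a heparan sulfate proteoglycan of the kind that Slits bind, was at 138 to 160 CPM against 221 to 233 (−0.62, SE 0.06, adjusted p = 4.74e-05). Ephb1, which directs ipsilateral ganglion cell axons, was at 24.6 to 29.7 against 42.4 to 46.3 CPM (−0.73, SE 0.08, adjusted p = 0.000122). Nell2, the ligand of Robo3, was at 63.3 to 72.4 CPM against 72.8 to 83.1, a log2-fold change of −0.22 (SE 0.07) that did not pass the test (adjusted p = 0.0597).

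The lower genes made up 6 of 11 plexins and neuropilins, 6 of 20 semaphorins, 6 of 36 Slit-Robo partners, 2 of 8 netrin receptors, 2 of 14 Eph receptors, 1 of 8 ephrins, 0 of 7 netrins and 0 of 3 RGM genes. The share that was lower among all genes tested was 7.51%. Genes of several retinal cell types were lower in the same comparison: 9 of 12 rod genes, with a median log2-fold change of −0.27, and 8 of 10 cone genes, with a median of −1.21 and 1 cone gene higher. So were 4 of 10 bipolar cell genes (1 higher), 3 of 5 horizontal cell genes, 3 of 7 Müller glia genes (2 higher), 3 of 14 amacrine genes and 3 of 11 ganglion cell genes. Of 8 microglia genes 0 were lower and 1 was higher, with a median of 0.37, and of 3 astrocyte genes 0 were lower. In dox-treated against untreated PRDM13-OE retinas 4 guidance genes were higher and 7 lower at an adjusted p under 0.05, or 10.3% of the 107 beside 5.0% of all genes.

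**Figure D4:**
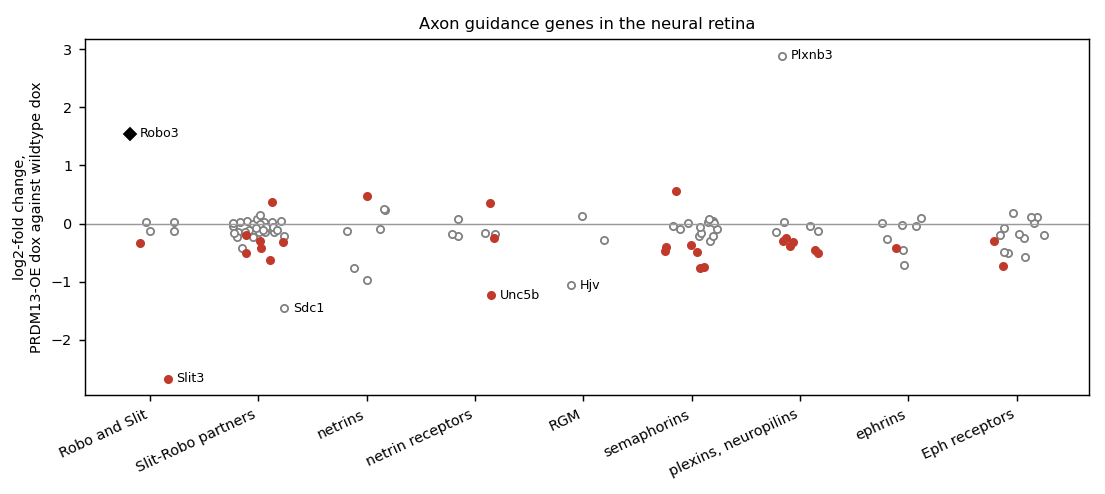
Log2-fold change of each guidance gene between PRDM13-OE dox and wildtype dox retinas (vertical axis), by gene family (horizontal axis; points are spread sideways for legibility). Red points had an adjusted p under 0.05, open points did not, the black diamond is Robo3, which has no test here, and genes past a log2-fold change of 1 in either direction are named.

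The eye cup gave no call for any of the 7 genes in any of the 5 comparisons, in which edgeR called 0.0% to 0.0184% of genes. Robo3 in PRDM13-OE dox eye cups was at 1.24, 1.19 and 2.92 CPM, and in wildtype dox eye cups at 0.338, 1.35 and 0.902. Untreated eye cups were at 0.198, 1.09 and 1.19 in PRDM13-OE and at 0.925, 2.31 and 0.365 in wildtype. The highest libraries were PRDM13-OE dox eye cup 3 and wildtype untreated eye cup 2. The PRDM13-OE dox group overlapped both wildtype groups and lay just above untreated PRDM13-OE (1.194 against 1.188 CPM), where 4.24% of genes were higher without overlap. The Robo3 log2-fold change was 1.08 (SE 0.60, 95% interval −0.34 to 2.49, adjusted p = 0.605) for PRDM13-OE dox against wildtype dox, where 4 of 21758 genes were called. Against untreated PRDM13-OE eye cups, where 0.0139% of genes were called, it was 1.11 (SE 0.77, adjusted p = 0.975). Both values rested in part on PRDM13-OE dox eye cup 3, without which they were 0.56 and 0.57; that eye cup also had the highest rod sum of its group, 40870 CPM against 13170 and 6137. The first value was 0.70 without wildtype dox eye cup 1, and the second was 0.64 without untreated PRDM13-OE eye cup 1. The rod covariate gave 0.93 and 1.22. Over the 9 mice outside the PRDM13-OE dox group the Robo3 level in retina went with that in the eye cup of the same mouse (Pearson r = 0.652, Spearman coefficient 0.7, and r = 0.669 without the 2 mice farthest from the median), at a few counts per library.

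Robo2 and Slit1, a receptor and a ligand of neurons, varied widely between eye cups. Wildtype dox eye cups had 47.4, 45.3 and 36.8 CPM of Robo2 and 16.4, 17.9 and 10.4 of Slit1. Wildtype untreated eye cups had 17.6, 5.81 and 14.2 CPM of Robo2 and 4.40, 0.396 and 1.19 of Slit1. All 3 wildtype dox eye cups were above all 3 untreated ones for both genes, and 21.4% of 21799 genes were higher without overlap in this comparison. Slit2, at 61.6 to 99.9 against 33.1 to 56.4 CPM, and Robo1, at 17.4 to 19.7 against 12.6 to 15.5, were also separated, with log2-fold changes of 0.87 (SE 0.26, adjusted p = 0.0866) and 0.38 (SE 0.15, adjusted p = 0.143). The log2-fold changes, 1.73 for Robo2 (SE 0.38, adjusted p = 0.0673) and 2.81 for Slit1 (SE 0.72, adjusted p = 0.0741), missed the threshold with edgeR, which called 0 genes here (6517 at an unadjusted p under 0.05). DESeq2 called Robo2 (1.75, adjusted p = 0.000648), Slit1 (2.86, adjusted p = 0.000978) and Robo4 (−1.07, adjusted p = 0.0334). With no filter on low counts edgeR called Robo2 and Slit1, as it did without wildtype untreated eye cup 1, and library size scaling called Robo2. The shares of all genes called under these alternatives are not given here, so the calls are not a result about these genes.

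Rod transcripts moved with this difference. In wildtype dox eye cups the sum of the 12 rod markers was 51300, 39210 and 26500 CPM. In the untreated ones it was 26020, 3446 and 13270 CPM. Over the 12 eye cups the rod sum went with Robo2 (r = 0.926) and Slit1 (r = 0.918), and less with Slit2 (r = 0.577), Robo3 (r = −0.171) and Robo1 (r = 0.00839). It ran against Robo4 (r = −0.657) and Slit3 (r = −0.57). Without the 2 libraries farthest from the median these values were 0.954 for Robo2, 0.95 for Slit1, 0.574 for Slit2, 0.233 for Robo3, 0.442 for Robo1, −0.319 for Robo4 and −0.174 for Slit3. Those of Robo2, Slit1 and Slit2 thus changed little, those of Robo4 and Slit3 weakened, that of Robo1 rose and that of Robo3 changed sign. Robo2 went with the sum of 11 ganglion cell genes at r = 0.99. With the rod sum as a covariate over the 12 eye cups the log2-fold changes were 0.64 for Robo2 and 1.47 for Slit1 (adjusted p = 0.882 for both).

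Between PRDM13-OE dox and wildtype dox eye cups, Robo2 was at 14.3, 11.7 and 44.2 CPM with induced PRDM13 and Slit1 at 1.79, 1.76 and 10.1. The third PRDM13-OE dox eye cup, with the high rod sum, lay within the wildtype dox range for Robo2 and just below it for Slit1, whose groups did not overlap, as in 8.46% of genes, lower. The log2-fold changes were −0.84 for Robo2 (SE 0.47, adjusted p = 0.605) and −1.68 for Slit1 (SE 0.67, adjusted p = 0.597). Without that library both were called, at −1.65 (adjusted p = 0.0136) and −2.98 (adjusted p = 0.0122), and with the rod covariate they were −0.18 and −0.68. The share of all genes called without that library is not given here, so these calls are not a result about Robo2 and Slit1.

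Robo4 in the eye cup went with endothelial genes. Its levels were 8.40, 8.56 and 12.6 CPM in wildtype with dox and 18.7, 32.1 and 11.5 without, and these groups overlapped (log2-fold change −1.07, SE 0.36, adjusted p = 0.103). PRDM13-OE eye cups had 6.44, 16.1 and 8.53 CPM with dox and 8.00, 12.0 and 20.4 without. Over the 12 eye cups Robo4 went with the endothelial sum at r = 0.945, a relation that held at 0.935 without the 2 libraries farthest from the median. Slit2, Slit3 and Robo1 spanned 31.7 to 99.9, 3.39 to 9.04 and 12.6 to 23.4 CPM over the 12 eye cups.

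**Figure D5:**
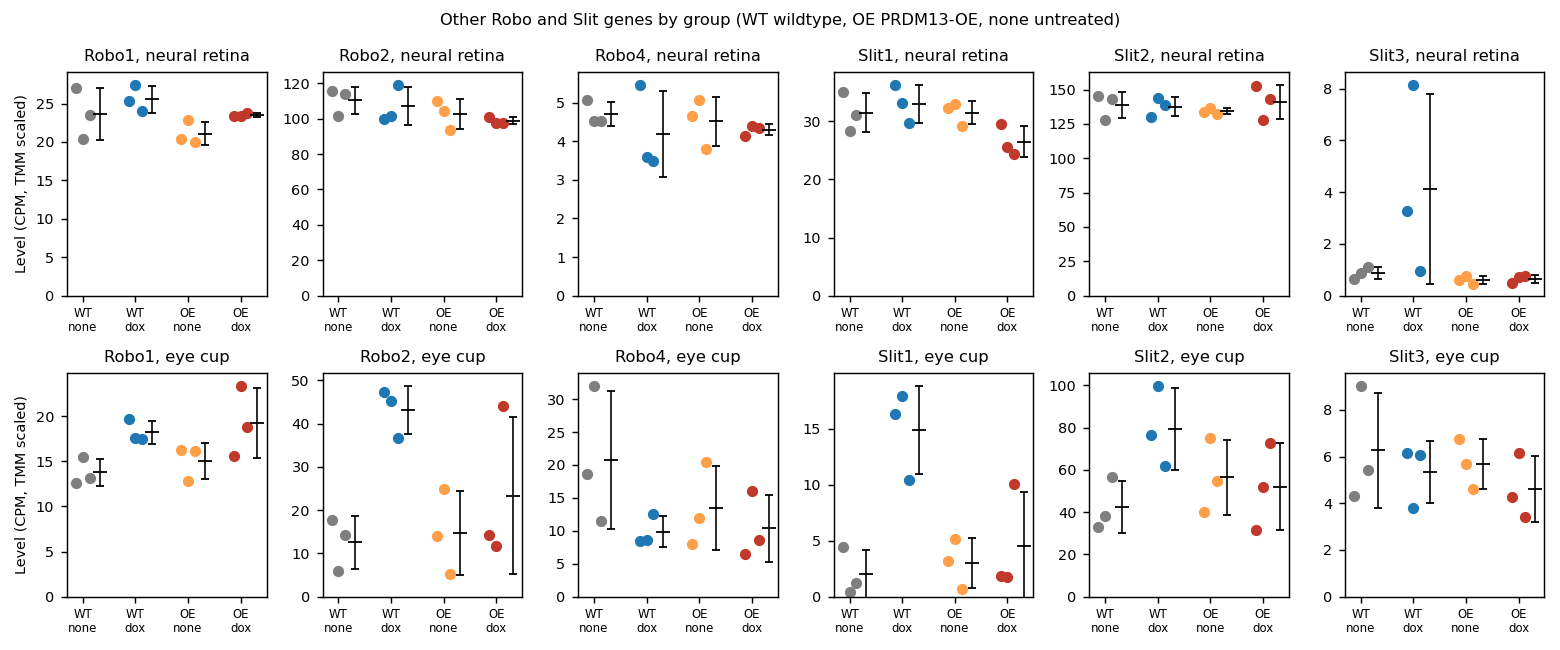
Level in CPM (vertical axes, linear, from 0) of the 6 other Robo and Slit genes in each library, neural retina in the upper row and eye cup in the lower, by group. Points are mice and bars mean ± SD (n = 3); Slit3 is high in 2 wildtype dox retinas, and Robo2 and Slit1 are high in wildtype dox eye cups.

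Without cassette or dox the genes divided by tissue. In untreated wildtype retinas the order in FPKM (mean ± SD, n = 3) was Robo2 (5.95 ± 0.49), Slit2 (4.99 ± 0.40), Slit1 (4.87 ± 0.56), Robo1 (1.31 ± 0.20), Robo4 (0.813 ± 0.059), Slit3 (0.131 ± 0.035) and Robo3 (0.101 ± 0.069). Slit1 overlapped both Slit2 and Robo2, Slit3 overlapped Robo3, and Robo1 and Robo4 stood apart from their neighbors. In untreated wildtype eye cups the order was Robo4 (4.16 ± 2.01), Slit2 (1.79 ± 0.52), Slit3 (1.10 ± 0.40), Robo1 (0.892 ± 0.076), Robo2 (0.797 ± 0.400), Slit1 (0.367 ± 0.395) and Robo3 (0.186 ± 0.151), and each gene overlapped the next. In wildtype dox eye cups Slit2 (3.18 ± 0.70) was above Robo4 (1.91 ± 0.53).

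In untreated wildtype mice, 5 of the Robo and Slit genes were called between retina and eye cup, Robo3 being left out, where 45.2% of 21979 genes were. Robo2 was higher in retina by 2.89 on the log2 scale (SE 0.38, adjusted p = 0.00049), Slit1 by 3.68 (SE 0.66, adjusted p = 0.00211) and Slit2 by 1.47 (SE 0.22, adjusted p = 0.000838). Slit3 was higher in the eye cup, at −3.06 (SE 0.38, adjusted p = 0.000355), and so was Robo4, at −2.35 (SE 0.35, adjusted p = 0.000846). Robo1 was at 0.55 (SE 0.16, adjusted p = 0.0182), under the fold cutoff. Robo3 was at −0.85, given without a test because these retinas were on the low side when it was chosen. Across all 12 mice the retina exceeded the eye cup of the same mouse in 12 for Robo2, Slit1 and Slit2, in 11 for Robo1, in 5 for Robo3, in 1 for Slit3 and in 0 for Robo4. Of the 107 guidance genes, 36 were called higher in retina and 30 in the eye cup, beside 19.3% and 25.9% of all genes. Those with the smallest p were Sema3c (−5.55, adjusted p = 2.94e-06), Sdc1 (−7.73, adjusted p = 3.51e-06) and Sema3b (−4.34, adjusted p = 9.62e-06), all higher in the eye cup. The untreated wildtype eye cups also held surface epithelium genes, at a sum of 6886 to 8745 CPM against 0.195 to 0.477 in the retinas. Muscle genes summed to 483 to 1222 CPM against 3.61 to 6.87. The part of these tissues in the differences was not tested.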

How the data were processed

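RNA was extracted from flash-frozen tissue and polyA RNA was sequenced on Illumina platforms by Novogene, which mapped reads to GRCm39/mm39. HISAT2 and CASAVA are named in the submitters' processing notes; the counting tool, annotation release and strand setting are not given in the sources used here. The deposited table holds raw counts per gene and library and FPKM values that the authors computed from counts and gene length. Columns with the authors' own fold changes and p-values were not used.

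Counts were tested with edgeR 4.0.16 (R 4.3.3; TMM, quasi-likelihood F test, genes with at least 10 summed counts in a fit, Benjamini-Hochberg adjustment over all genes). Genes were called where the log2-fold change exceeded 1 in size and the adjusted p was below 0.05, the cutoffs of the study. Fits held the compared groups only, and all 12 libraries of a tissue for the difference between dox effects. Scripts were tested on simulated data. Alternatives were DESeq2 1.42.0, library size scaling, filterByExpr, no filter, robust fitting, all libraries of a tissue, a replicate block, lens or rod covariates and leaving out each library. All correlations used log2(CPM + 1), for single genes and for sums of marker genes alike. Upstream sequences were read from the GRCm39 genome at GENCODE vM39 gene starts, and the deposited gene ends can differ from these.

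Tissues of 1 mouse share a number in the labels. Within a tissue mice with the same number did not deviate together, so numbers were not used as pairs. The Robo and Slit genes and all lists were chosen with earlier results of these data known. Named guidance genes were those called in PRDM13-OE dox against wildtype dox, and elsewhere the 3 called with the smallest p; also the 5 genes most like Robo3 and its tested neighbors within 100 kb. Others are marked in the text. Intervals are at 95%.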

Additional observations from a re-analysis of the deposited data

Results flagged for a closer look

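The retinal dox effect on Unc5b differed between the genotypes. The log2-fold change on dox was −1.20 in PRDM13-OE and 0.04 in wildtype retinas, and the difference between them was −1.24 (SE 0.13, edgeR adjusted p = 1.51e-05), with all 3 PRDM13-OE dox retinas below the other 9.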

How the results depend on the processing

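Counts of called Robo and Slit genes, without Robo3 in the retina comparisons that chose it, moved by over 1.5 times under some alternative in 5 of 11 comparisons. In PRDM13-OE dox against wildtype dox retinas the 1 call (Slit3) became 0 with robust fitting and with the lens covariate, 2 (Slit1, Slit3) with no fold cutoff, and 0 to 1 on leaving out each library. In wildtype retinas with and without dox, and for the difference between the retinal dox effects, 0 became 1 (Slit3) with no filter, and 0 to 1 on leaving out each library. In PRDM13-OE dox against wildtype dox eye cups 0 became 0 to 2 on leaving out each library. In wildtype eye cups with and without dox 0 became 3 with DESeq2, 1 with library size scaling, 2 with no filter, and 0 to 2 on leaving out each library. The causes were not tested, and the shares of all genes called under the alternatives are not given here. The 5 calls between tissues were kept in every alternative run, and no fold cutoff added Robo1, giving 6. Of 1119 tested values under alternatives, 77 had the other sign, all of them uncalled. The Xist covariate was chosen after seeing the data. Within a tissue, the correlation of deviations between mice of the same number ran from −0.257 to 0.203 in retina and −0.554 to 0.656 in eye cup; the replicate block left 1 call in the PRDM13-OE dox against wildtype dox retinas and changed no other call, and between tissues, where it pairs samples of 1 mouse, 5. With 3 mice a group and 7 to 25 Robo3 counts in retinas without induced PRDM13, small changes were not detectable.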
